A study of Populus ussuriensis with 20 samples.

Results

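Poplar cuttings that overexpress the transcription factor PuHox52 (OE) were compared with wild-type cuttings (WT) at 96 h after cutting, the latest stage sampled. Libraries were chosen by their labels alone, 2 of OE and 2 of WT at that stage, which makes 4 of the 20 libraries of the series. The other 16 cover both genotypes at 6, 12, 24 and 48 h. All plants were Populus ussuriensis raised in vitro, and each library came from about 0.5 cm of stem base pooled from 40 cuttings. OE plants carried PuHox52 under the cauliflower mosaic virus 35S promoter, which is active in most plant tissues, and WT plants carried no named transgene. Whether OE plants came from 1 or several transgenic lines is not given in the labels. Plant age is stated as 2 weeks in one place and 4 weeks in another.

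Adventitious roots arise from shoot tissue rather than from an existing root. In a stem cutting, wounding and the auxin that collects at the base are followed by divisions near the vascular tissue, and a root primordium is then built and pushes out through the stem. PuHox52 belongs to the homeodomain-leucine zipper proteins, a plant family of DNA-binding regulators. The deposited tables give gene models by identifier and position, without names or products. Single genes are therefore described here by their level, place and time course, the tissue label could not be set against marker genes, and no gene model could be tied to PuHox52 to check the genotype labels. As in any bulk sample, fewer cells of a type and less RNA per cell cannot be told apart.

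The OE libraries held 19166777 and 25976005 counts and the WT libraries 18007157 and 15806074, so that OE was sequenced more deeply. Replicates resembled each other closely, with a Spearman correlation across genes of 0.993 in OE and 0.9919 in WT, against 0.9821 to 0.9894 between libraries of different genotype. The 10 most abundant gene models took 6.68 and 6.3% of the counts in OE and 8.81 and 8.37% in WT. Levels are given as CPM, which scales counts to a common library size after TMM normalization.

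At 96 h, 293 genes were higher in OE than in WT and 110 were lower, out of 26391 tested. These are 1.11% and 0.417% of the genes tested, 1.53% together, with an adjusted p under 0.05 (edgeR quasi-likelihood test, Benjamini-Hochberg). Differences were mostly moderate. The median log2 fold change was 0.982 among the higher genes and -1.057 among the lower ones, and 142 and 59 of them differed by at least 2-fold (0.538% and 0.224% of the genes tested). By more than 8-fold, 13 genes were higher and 12 lower. The 13 stood at no more than 0.386 CPM in either WT library at 96 h, so their folds rest on few WT counts. In the OE libraries the 12 ranged from 0 to 7.49 CPM. The libraries of the genotypes did not overlap in any of the 403 called genes, but this also held for 49.9% of all genes tested. Most of the 403 genes were no longer called without WT replicate 1 at 96 h, while some other genes were. The calls depended on single libraries of each genotype. They numbered 23 without OE replicate 2, 161 without OE replicate 1, 33 without WT replicate 2 and 267 without replicate 1 of WT at 48 h, which shares in the estimate of the spread. The higher genes numbered 100 without OE replicate 1, and 181 and 185 without WT replicates 1 and 2 at 48 h. The lower genes numbered 61 without OE replicate 1 and 68 without WT replicate 1 at 96 h. The excess of higher genes was not seen without OE replicate 2 (9 higher, 14 lower) or WT replicate 2 (14 higher, 19 lower).

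**Figure D1:**
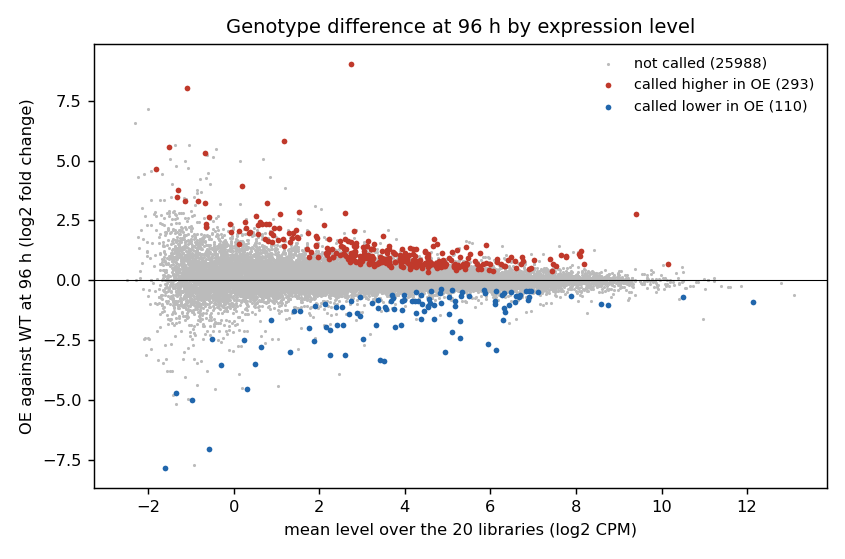
Log2 fold change of OE against WT at 96 h (vertical axis) against the mean level over the 20 libraries in log2 CPM (horizontal axis), with 1 point for each of the 26391 genes tested. Of the called genes, 293 lie above 0 and 110 below, and the spread of the uncalled genes widens towards low levels.

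Below the threshold the lean towards OE was similar in kind. Another 882 genes differed by at least 2-fold upwards without being called, against 320 downwards. The quartiles of the log2 fold change over all genes tested were -0.142 and 0.204, around a median of 0.002. A centre near 0 is largely set by the TMM normalization and is not a result about the genotypes. Around it the distribution had a longer arm on the OE side, with 5% of genes under -0.491 and 5% over 0.885. Replicates differed by a median of 0.15 in OE and 0.149 in WT on the log2 scale, and by 0.165 and 0.223 over the called genes. The genotype means differed by a median of 0.164 over all genes and 0.999 over the called ones, which were chosen for that difference. Replicate values are differences between single libraries and genotype values between means of 2, so they are not on an equal footing.

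The genes with the largest change in abundance were taken by the difference in mean CPM. Potri.014G103000.v3.0 (chromosome 14, 8085842 to 8087890, minus strand) stood at 2130.4 and 2625.8 CPM in the OE libraries, against 348.2 and 360.6 CPM in the WT libraries. The groups lay far apart, 6.71-fold on average (log2 fold change 2.75, SE 0.259, adjusted p 0.00017 by edgeR's quasi-likelihood test). Per length it reached 1031.9 and 1269.1 FPKM in OE, against 171.9 and 179.8 FPKM in WT. The gene was called at 6, 12 and 24 h too, upwards in OE, with log2 fold changes of 1.77, 2.89 and 2.05 and adjusted p of 0.00437, 0.000114 and 0.00189. At 48 h the log2 fold change was 1.16 and was not called (adjusted p 0.236). Its difference at 96 h was not shown to depart from the mean of those times (change 0.78, SE 0.273, adjusted p 0.23).

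Potri.006G126800.v3.0 (chromosome 6, 10249101 to 10252663, minus strand) had a smaller fold but a large share of the RNA. It stood at 1681.8 and 1495.2 CPM in OE, against 1055.9 and 933.4 CPM in WT, 1.6-fold higher (log2 fold change 0.68, SE 0.107, adjusted p 0.00525). The genotypes had been close at 48 h, with means of 1296.9 ± 36.5 CPM in OE and 1371.6 ± 33 CPM in WT (SD, n = 2 each). By 96 h the OE mean was 1588.5 ± 132 CPM and the WT mean 994.6 ± 86.6 CPM (SD, n = 2 each). The departure from the earlier times was itself called, by 0.85 on the log2 scale (SE 0.12, adjusted p 0.00538). The call at 96 h was lost without WT replicate 2 (adjusted p 0.134) or OE replicate 1 (0.0553), and that of the departure without WT replicate 2 (0.093).

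Of the lower genes, Potri.001G102400.v3.0 (chromosome 1, 8187840 to 8188878, minus strand) had the largest difference in CPM. It stood at 3984.7 and 3063 CPM in OE, against 6025 and 7003.9 CPM in WT, a level 1.85-fold lower (edgeR quasi-likelihood test, log2 fold change -0.89, SE 0.169, adjusted p 0.0168). Per length this was 4090.9 and 3107.6 FPKM in OE and 6259.7 and 7417.3 FPKM in WT. Potri.013G041600.v3.0 (chromosome 13, 2927792 to 2945794, plus strand) stood at 1123 and 841.2 CPM in OE, against 1533.7 and 1624.1 CPM in WT (log2 fold change -0.69, SE 0.159, adjusted p 0.0418). Neither difference at 96 h was shown to depart from the mean of the earlier times by the same test. The changes were -0.66 (SE 0.188, adjusted p 0.129) on chromosome 1 and -0.31 (SE 0.177, adjusted p 0.522) on chromosome 13. Both calls at 96 h rested on single libraries. That on chromosome 1 was lost without OE replicate 2 (adjusted p 0.266) or WT replicate 2 (0.218). That on chromosome 13 was lost without OE replicate 2 (0.437) or without either WT library at 96 h (0.101 and 0.307), at 6 h (0.0561 and 0.056) or at 48 h (0.0587 and 0.0589). The gene model on chromosome 13 overlaps 1 other model, and counting with or without strand is not stated, so its reads may be shared.

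The genotype difference at 96 h was then tested against its mean at 6, 12, 24 and 48 h. A call means a departure from that mean, not from each earlier time, and can stem from 1 of them alone. The departure was called for 197 genes, 0.746% of those tested, being more positive for 149 (0.565%) and more negative for 48 (0.182%). The smallest adjusted p in each direction chose the genes described next. The number of calls fell to 4 without OE replicate 2 at 96 h, 12 without WT replicate 2, and 63 without OE replicate 1. It was 123 and 108 without WT replicates 1 and 2 at 6 h, 101 without WT replicate 1 at 24 h and 83 without WT replicate 2 at 48 h. Without OE replicate 2 at 6 h it was 320. The more positive departures alone also fell to 98 without WT replicate 1 at 12 h and to 92 without WT replicate 1 at 48 h.

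Potri.004G032900.v3.0 (chromosome 4, 2400316 to 2406340, plus strand) was close between the genotypes, or lower in OE, before 96 h. It stood at 26.3 and 40.7 CPM in the OE libraries at 96 h, against 4.52 and 4.89 CPM in WT (log2 fold change 2.83, SE 0.313, adjusted p 0.000432 by edgeR's quasi-likelihood test). At 24 h the means were 1.16 CPM in OE and 3.51 CPM in WT, with a log2 fold change of -1.61 that was not called (adjusted p 0.113). The departure from the earlier mean was 3.65 on the log2 scale (SE 0.378, adjusted p 0.000613).

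Potri.008G027500.v3.0 (chromosome 8, 1475678 to 1484437, plus strand) reached similar levels in both genotypes at 48 h, with 13.9 CPM in OE and 11.4 CPM in WT. The OE libraries of 96 h had 11.1 and 12.6 CPM, against 3.22 and 3.92 CPM in WT (log2 fold change 1.73, SE 0.18, adjusted p 0.000235). The OE libraries thus stayed near their level at 48 h while the WT libraries lay well under theirs. At 24 h the gene had been lower in OE (log2 fold change -1.05, adjusted p 0.0171). The departure was 2.16 (SE 0.213, adjusted p 0.000613). This model overlaps 1 other gene model.

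Both genes with the smallest adjusted p for a departure towards lower levels in OE had a higher mean in WT at 96 h than in WT at 48 h. Potri.019G006900.v3.0 (chromosome 19, 827285 to 833444, plus strand) had 6.97 and 4.96 CPM in OE, against 46.4 and 75.1 CPM in WT (log2 fold change -3.36, SE 0.309, adjusted p 0.00017 by edgeR's quasi-likelihood test). Its mean in OE was 5.39 CPM at 48 h and 5.97 CPM at 96 h. In WT it was 6.25 CPM at 48 h and 60.8 CPM at 96 h. The departure was -2.91 (SE 0.358, adjusted p 0.0032, and 0.0556 without OE replicate 2 at 96 h). Another model of chromosome 19, at 1336150 to 1336941, had nearly the same values, with 7.49 and 4.52 CPM in OE and 44.1 and 73.3 CPM in WT, so reads may have been divided between copies.

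Potri.007G111500.v3.0 (chromosome 7, 13441750 to 13450893, minus strand) had 1.44 and 0.926 CPM in OE, against 8.71 and 11.7 CPM in WT (log2 fold change -3.13, SE 0.363, adjusted p 0.000633, same test). Its mean at 48 h was 3.27 CPM in OE and 1.42 CPM in WT. In WT the mean of 10.2 CPM at 96 h was near those of 10.9 CPM at 12 h and 9.74 CPM at 24 h. In OE the means at 12, 24 and 96 h were 8.37, 4.45 and 1.18 CPM. The departure was -3.18 (SE 0.402, adjusted p 0.0032, and 0.0556 without OE replicate 2). The model spans 2 other gene models, and all 3 were called lower in OE.

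**Figure D2:**
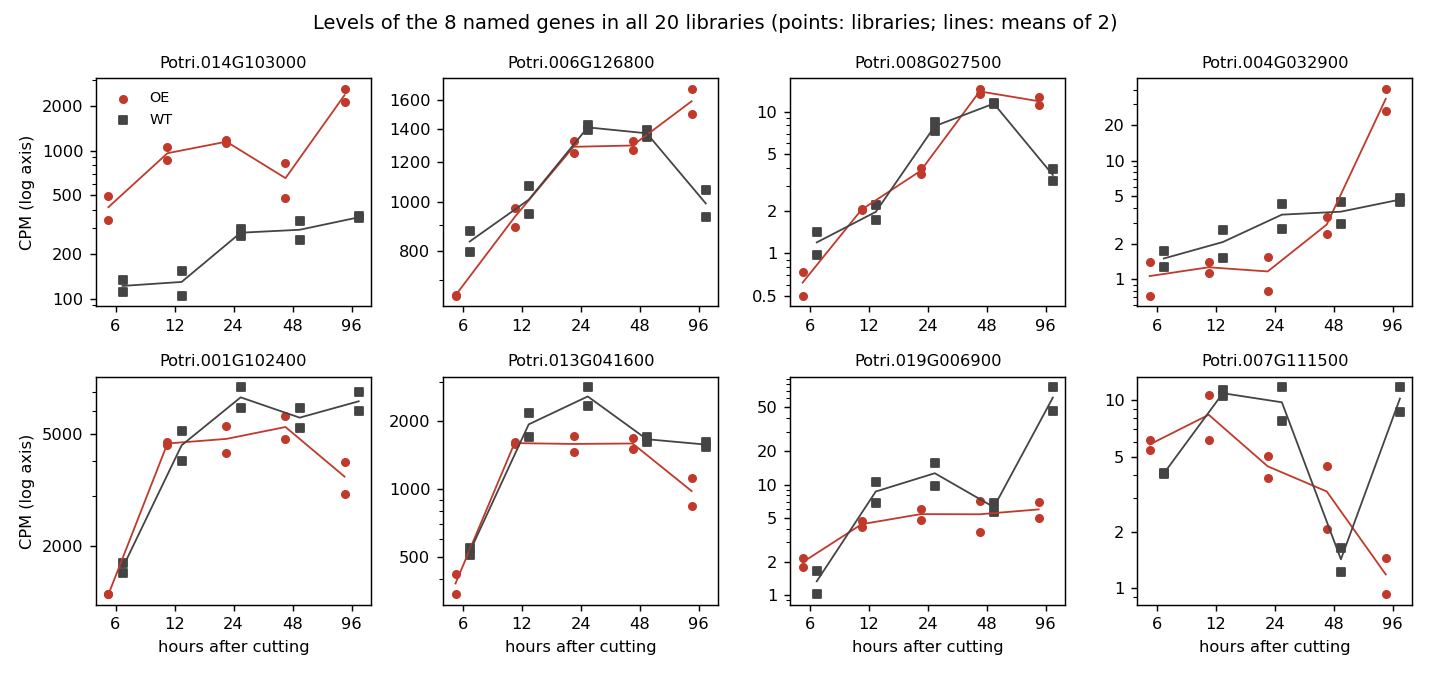
CPM on a log axis against hours after cutting for the 8 named genes, with a point for each of the 20 libraries and lines through the means of 2 (OE circles, WT squares). The upper panels show genes higher in OE at 96 h and the lower panels genes lower in OE. The right-hand panels hold the genes chosen for their departure. There the genotypes lie furthest apart at 96 h and also differ at some earlier times.

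As a group, the genes called at 96 h made up a small part of the RNA. The 293 higher genes took 1.14 and 1.26% of the counts in the OE libraries and 0.56 and 0.528% in the WT libraries. In the libraries of 6 to 48 h, which bear on their choice through the shared estimate of the spread, they took 0.862 to 1.24% in OE and 0.825 to 1.12% in WT. The OE libraries at 96 h were thus within or close to the earlier range, and the WT libraries lay below it. The 110 lower genes took 0.968 and 0.82% in OE and 1.52 and 1.74% in WT at 96 h, against earlier ranges of 0.504 to 1.17% in OE and 0.57 to 1.48% in WT. Here too the WT libraries were the ones outside the earlier range, with 1.52% only just above 1.48%. Such shares are weighted towards abundant genes and need not hold for most members of a set. Potri.001G102400.v3.0 alone had 106525 and 108858 counts in the WT libraries and 77721 and 82686 in the OE libraries. Of the higher genes, Potri.014G103000.v3.0 had 41552 and 70885 counts in OE and 6157 and 5605 in WT. Since the libraries of 96 h chose these genes, their shares at 96 h are a description.

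The balance of directions changed with the mean CPM of a gene, a scale that sets the precision and is not per length. Among the 7049 genes with a mean of 2 to 4 log2 CPM, 111 were called higher and 33 lower, and among the 8723 genes at 4 to 6, 95 and 34. Among the 3146 genes at 6 to 8, the calls were nearly even, 23 higher and 22 lower. Above 8 there were 6 and 4 calls among 500 genes. The share of genes called, 0.766% below 0 and between 1.26% and 2.04% in the bands above it, did not rise steadily with level. The median log2 fold changes of the called genes, whose size depends in part on the precision at each level, were 3.32 upwards and -4.86 downwards below 0 log2 CPM and 1.97 and -2.5 at 0 to 2. They were 1.02 and -1.2 at 2 to 4, 0.72 and -0.91 at 4 to 6, 0.77 and -0.68 at 6 to 8, and 1.05 and -0.94 above 8.

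Weakly expressed genes leaned towards OE as a whole. The median log2 fold change over all genes was 0.176 below 0 log2 CPM and 0.137 at 0 to 2, against -0.025 at 4 to 6 and -0.042 at 6 to 8. With every library thinned to 10399262 counts, the medians of the lower bands were 0.158 and 0.134. The part of depth in the lean was not tested further. In the full tables, 354 gene models had counts in both OE libraries and none in either WT library, against 105 with the opposite pattern. After thinning the numbers were 315 and 186.

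Called genes were spread over all 19 chromosomes. Chromosome 13 had the highest share of genes called higher, 24 of 1026 tested (2.34%), and a median log2 fold change of 0.056 over all its genes. Most of that came from its start, a stretch bounded after the values were seen. Up to 2.3 Mb, 204 of 241 tested genes had a positive log2 fold change, with a median of 0.21, and 15 were called higher. On the rest of the chromosome 385 of 785 were positive, with a median of -0.001 and 9 called higher. Chromosome 7 had the highest share called lower, 9 of 958 (0.939%), followed by chromosomes 1 (0.718%) and 19 (0.714%). The 9 include the 3 overlapping models at 13441750 to 13450893, whose reads may be shared, so the first place of chromosome 7 is uncertain. Chromosome 19 had the highest share called in all, 18 of 700 (2.57%).

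**Figure D3:**
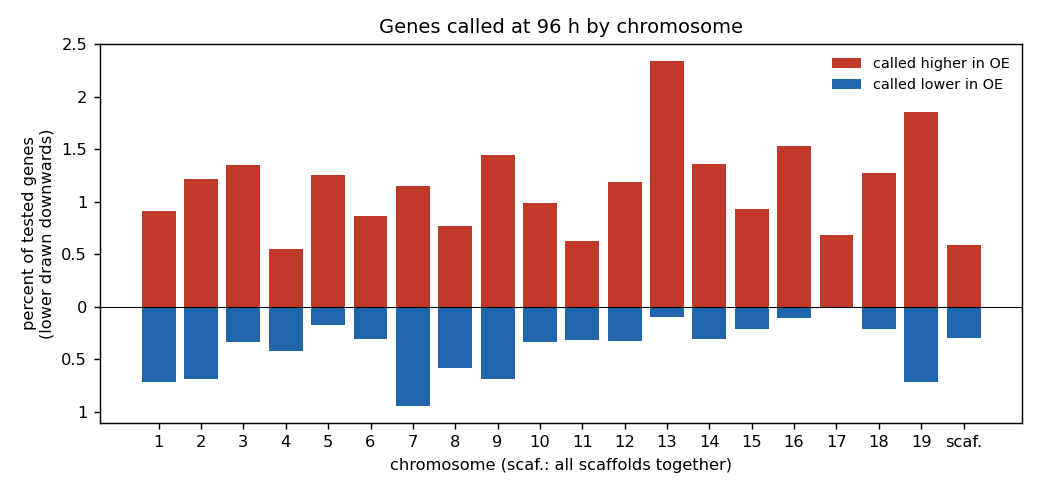
Percent of tested genes called higher (upward bars) and lower (downward bars) in OE at 96 h on each chromosome and on all scaffolds together. Chromosome 13 reaches 2.34% upwards, against 1.11% over the genome, and chromosome 7 reaches 0.939% downwards, against 0.417%. The lower genes of chromosome 7 include 3 overlapping models.

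Called genes that were neighbours made up a larger part of the lower than of the higher genes. An adjacent tested gene was called in the same direction for 20 of the 110 lower genes (18.2%) and 25 of the 293 higher genes (8.53%). Of all tested genes 0.417% were called lower and 1.11% higher, and the share of them beside a called gene was not counted. The 20 include the 3 overlapping models on chromosome 7, whose reads may be shared. Runs of at least 3 called genes in 1 direction, with at most 2 other tested genes between them, were found in 6 places. The longest, 5 genes on chromosome 1 (49360630 to 49412691), had summed levels of 200 and 208.1 CPM in OE and 389.5 and 377.1 CPM in WT. A second run of 3 lower genes followed on the same chromosome (49489927 to 49510558), at 25.5 and 27.7 CPM in OE and 51.1 and 52.2 CPM in WT. On chromosome 2 (11505495 to 11532690) 4 adjacent genes were lower, at 34 and 32.8 CPM in OE and 62.4 and 78.1 CPM in WT.

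These runs differed in their time course. Both runs on chromosome 1 and the one on chromosome 2 were lower in OE throughout. Their median log2 fold changes were -0.97, -1.05, -1.06, -1.02 and -1.2 at 6, 12, 24, 48 and 96 h for the longest, and -0.87, -0.65, -0.77, -0.88 and -1.07 for that on chromosome 2. The run of 3 overlapping models on chromosome 7 (13441750 to 13450893) had medians of 0.5, -0.94, -1.34, 0.07 and -3, and the departure was called for 2 of them. Its summed level was 10.7 and 6.08 CPM in OE, against 49 and 54.1 CPM in WT.

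The remaining runs, each of 3 higher genes, lay on chromosome 3 (9465134 to 9519541) and chromosome 12 (4361759 to 4466003). The first had 293.1 and 329.9 CPM in OE, against 109.4 and 189.2 CPM in WT, with medians of -0.66, 0.79, 1.06, -0.11 and 0.92 over the 5 times. The second had 174.1 and 199 CPM in OE, against 128.2 and 100.3 CPM in WT, and medians of 0.13, 0.21, 0.22, 0.04 and 0.7.

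The same genes were then looked up at earlier times. The libraries of those times are not in the contrast at 96 h, but they share in its estimate of the spread and so in which genes were called, and the counts below are a description. At 24 h, 202 of the 293 higher genes (68.9%) had a positive log2 fold change, against 52.8% of all tested genes, and their median was 0.191. Of them 18 were called higher and 7 lower at 24 h, where 0.307% and 0.432% of all genes were called. For the 110 lower genes, 80% were negative at 12 h and 75.5% at 24 h, against 51% and 47% of all genes. Their medians were -0.289 and -0.332, and 12 and 17 of them were called lower at those times, 10.9% and 15.5%, against 0.193% and 0.432% of all genes. At 48 h, the last time before, the medians were -0.005 for the higher and -0.037 for the lower genes. The lower genes still included 9 called lower at 48 h, which are all 9 genes called lower at that time (0.0341% of those tested), and 1 of the 3 genes called higher then (0.0114%).

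**Figure D4:**
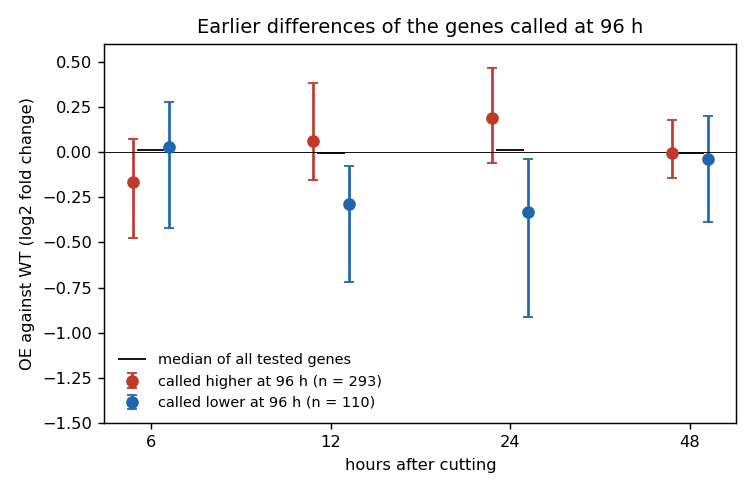
Log2 fold change of OE against WT at 6, 12, 24 and 48 h for the genes called at 96 h. Points are medians, bars the quartiles and black dashes the median of all tested genes. The 293 genes called higher had a median of -0.163 at 6 h and 0.191 at 24 h, and the 110 genes called lower reached -0.332 at 24 h.

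At 6 h the higher genes leaned the other way, while the lower genes had a median of 0.029. Of the lower genes 9 were called lower at 6 h and 2 higher (8.18% and 1.82%, against 0.678% and 0.409% of all genes). Among the higher genes, a positive log2 fold change was seen in 97 of 293 (33.1%), against 52.2% of all genes, with a median of -0.163. At that time 18 of them were called lower in OE and 2 called higher (6.14% and 0.683%). The 18 genes are 10.1% of the 179 genes called lower at 6 h and lie on 11 chromosomes. Their median log2 fold change was -0.8 at 6 h, ranging from -1.38 to -0.56, and 0.89 at 96 h, ranging from 0.47 to 1.51. The 18 genes were chosen by their calls at 6 and 96 h, which fixes the signs at these times. Between these times the medians were 0.4, 0.27 and 0.07 at 12, 24 and 48 h. The number was sensitive to the libraries at either end. It was 1 and 8 without WT replicates 1 and 2 at 6 h, and 4 and 32 without OE replicates 1 and 2 at 6 h. It was 0 without replicate 2 of either genotype at 96 h and 3 without OE replicate 1. Without WT replicate 1 at 24 h it was 11, and 8 without either WT library at 48 h. Without replicate 2 of OE or WT at 96 h, edgeR called 9 or 14 higher genes at 96 h in all, and DESeq2 on all libraries gave 33 genes of this kind.

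The called genes were also placed on the time course of WT before 96 h. From 6 to 48 h in WT, 91 of the 293 higher genes were called up and 101 down, 31.1% and 34.5%, against 28.5% and 27.3% of all tested genes. Of the 110 lower genes 41 were called up and 29 down, 37.3% and 26.4%. Both sets thus held genes that were higher and genes that were lower at 48 h than at 6 h. The widest gaps to all genes were 37.3% against 28.5% and 34.5% against 27.3%. Plants had 16 h of light and 8 h of dark, and these times fall at different hours of the day. Time since cutting and time of day therefore cannot be told apart here.

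A small core of calls at 96 h stayed whichever of the 4 libraries of that time was left out. It held 5 higher genes, with a median log2 fold change of 2.75, and 10 lower genes, with a median of -1.66. Potri.014G103000.v3.0, Potri.004G032900.v3.0 and Potri.008G027500.v3.0 were among the higher genes of this core, and Potri.019G006900.v3.0 and Potri.007G111500.v3.0 among the lower ones. With 1 library left in a group, that library is assumed to vary like the others. Against a log2 fold change of 1 rather than 0, edgeR's glmTreat called 5 genes higher and 5 lower.

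**Figure D5:**
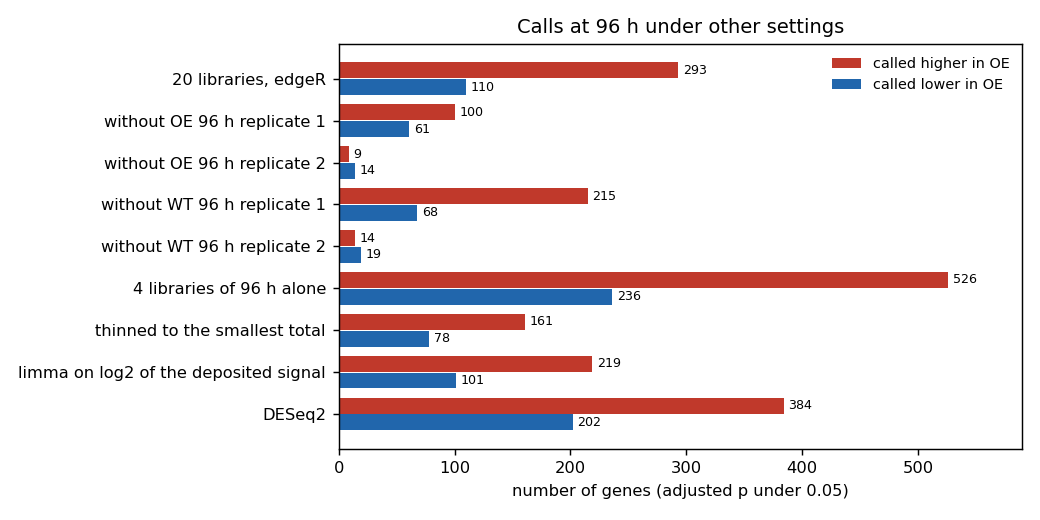
Number of genes called higher and lower in OE at 96 h with all 20 libraries, without each library of 96 h, and under other settings. Without OE replicate 2 the calls were 9 higher and 14 lower and without WT replicate 2 they were 14 and 19, while the 4 libraries of 96 h alone gave 526 and 236.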

How the data were processed

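Stem bases of OE and WT cuttings were sequenced as 2 biological replicates per genotype and time, per the labels. The submitters' processing notes name TopHat2 2.1.1 and HTSeq 0.6.0 without role or order. Genome build, annotation release and strandedness were not given in the sources used here. Positions are printed as deposited. Each library has 1 table of 39538 gene models. The deposited count column holds whole numbers and was tested. The deposited FPKM column gives levels per length. The deposited normalized column is a signal on a scale that the authors set for each library, and served in 1 alternative as log2(signal + 1).

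edgeR 4.0.16 in R 4.3.3 was used with TMM scaling (trimmed mean of M values), the default filterByExpr (26391 genes kept) and 1 group-means model over 20 libraries with 10 residual degrees of freedom. It was also run on counts simulated from its own fitted means and spread. Such a run checks the code and cannot show whether its assumptions hold for these libraries. Fold changes are on the log2 scale, OE over WT, and each SE is that change over the root of its F statistic. A gene is called at an adjusted p under 0.05. Alternatives used limma 3.58.1 and DESeq2 1.42.0. Totals over the series ran from 10399262 to 27472303 counts.

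Named genes needed a call, groups that did not overlap and a mean log2 CPM of at least 1, and the 2 largest differences in mean CPM were taken per direction. For the departure from earlier times the 2 smallest adjusted p were taken, ties going to the smaller p. Lists by product and cell type markers could not be formed, as the files pair no identifier with a product. The comparison and these rules were chosen with earlier results of these data known.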

Additional observations from a re-analysis of the deposited data

Results flagged for a closer look

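The genotype difference at 96 h was tested against its mean at the other times, and 197 genes were called (edgeR quasi-likelihood test, Benjamini-Hochberg). Among the named genes the difference was more positive at 96 h for Potri.004G032900.v3.0 (3.65 on the log2 scale, adjusted p 0.000613), Potri.008G027500.v3.0 (2.16, 0.000613) and Potri.006G126800.v3.0 (0.85, 0.00538). It was more negative for Potri.007G111500.v3.0 (-3.18, 0.0032) and Potri.019G006900.v3.0 (-2.91, 0.0032).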

How the results depend on the processing

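No paired analysis was possible because the labels carry no replicate numbers. Replicates 1 and 2 are numbered here by the order of the libraries in the series and are not matched between groups. Against 403 calls at 96 h (293 higher, 110 lower), 197 departures (149 more positive, 48 more negative) and 18 genes higher at 96 h and lower at 6 h, the following values moved by over 1.5 times. Without filtering low counts they were 658 (466 and 192), 344 (249 and 95) and 33. With the libraries of 96 h alone there were 762 calls (526 and 236), among them 327 of the 403. Thinning to the smallest total gave 239 calls (161 higher) and 11 genes higher at 96 h and lower at 6 h. glmTreat gave 10 calls (5 and 5). DESeq2 gave 202 lower genes, 363 departures (254 and 109) and 33 genes. Leaving out 1 library at a time gave 23 to 498 calls (9 to 342 higher and 14 to 156 lower), 4 to 320 departures (3 to 224 more positive and 1 to 96 more negative) and 0 to 32 genes higher at 96 h and lower at 6 h. Median-of-ratios scaling, a stricter filter and limma on the deposited signal, an alternative added after the data were seen, moved none of these counts by over 1.5 times, and shared 360, 387 and 299 of the 403 calls. Over these settings and all 8 named genes, no log2 fold change turned its sign. These genes were chosen with groups that did not overlap at 96 h, so leaving out 1 library could hardly turn it. The cause of the shifts in the counts was not tested. Depth and 2 libraries per group limit what could be called.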
